A study of Mus musculus with 8 samples.

Results

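Chemokine receptors were followed in regulatory T cells (Tregs) sorted from mouse spleen. The 9 genes Ccr2, Ccr4, Ccr6, Ccr7, Ccr8, Ccr9, Cxcr3, Cxcr4 and Cxcr6 were taken by symbol from a table of 21524 genes. They are receptors that T cells are known to carry, without the follicular receptor. Each gene had a value in 8 libraries, of which 4 carried the treatment label IL-2 (libraries 41 to 44) and 4 the label Ctrl (libraries 45 to 48, called control here). The series' text describes a long-lived IL-2 mutein, given biweekly beside 1 dose of CTLA-4 Ig to C57BL/6 recipients of BALB/c hearts or kidneys. Whether the libraries labelled IL-2 came from animals given this mutein is not stated, nor whether either group carried a graft or received CTLA-4 Ig. The sources used here also do not state strain, age, sex, the agent given to controls or the sorting gate. Nor is it said that each library is a separate animal, so a p-value measures library-to-library spread, which may be technical.

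Chemokine receptors are surface proteins that couple to inhibitory G proteins and steer a cell toward the source of their ligand. Ligand binding activates integrins and the cytoskeleton, and kinases and arrestins then switch the receptor off. Treg subsets carry different receptors: CCR7 and CXCR4 keep cells in lymphoid organs and marrow, CCR4 and CCR8 mark effector Tregs of skin and other tissues, CCR6 and CCR9 guide cells to mucosa, and CXCR3, CCR2 and CXCR6 guide them to inflamed tissue.

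All but 1 of the 9 receptors were lower in the IL-2 libraries. Ccr6 fell most, to a level 8.20-fold below control, followed by Ccr9 (3.33-fold), Ccr2 (2.70-fold), Cxcr3 (2.64-fold), Ccr4 (2.41-fold), Cxcr4 (2.09-fold), Ccr7 (1.96-fold) and Ccr8 (1.63-fold). Cxcr6 did not pass the test. None of the 9 rose. In these bulk samples, fewer cells carrying a receptor and less of its RNA per cell cannot be told apart.

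The deposited values are log2 variance-stabilised, a scale that compresses low counts, so normalised reads were recovered from them and all folds are ratios of group means of those reads. Recovered depth ran from 4953547 to 6399418 reads in libraries 41 to 44 and from 4970820 to 6147506 in libraries 45 to 48. The planned limma fit of deposited values kept genes lying at least 1 unit above the lowest value in at least 4 libraries. This left 5261 genes, of which 767 (14.6%) were lower with IL-2 at an adjusted p under 0.05 and 883 (16.8%) higher. Ccr2, Ccr4, Ccr7 and Cxcr3 entered that fit and all 4 were called lower. Cxcr3 entered through its control libraries alone, so that count is not independent of the difference. A second limma fit used log2(normalised reads + 5) and genes with at least 10 reads in at least 4 libraries. All 9 receptors entered it among 10777 genes, and 8 were called lower. Of all genes in this fit, 978 (9.07%) were called lower, 1172 (10.9%) higher and 2150 (19.9%) either way. The median difference of the 9 was -1.25 against -0.01 over all genes in that fit. For the same 8 receptors every IL-2 library lay below every control library, which held for 10.9% of all genes of the fit. Log2 differences and adjusted p-values below come from this second fit unless the deposited scale is named.

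**Figure D1:**
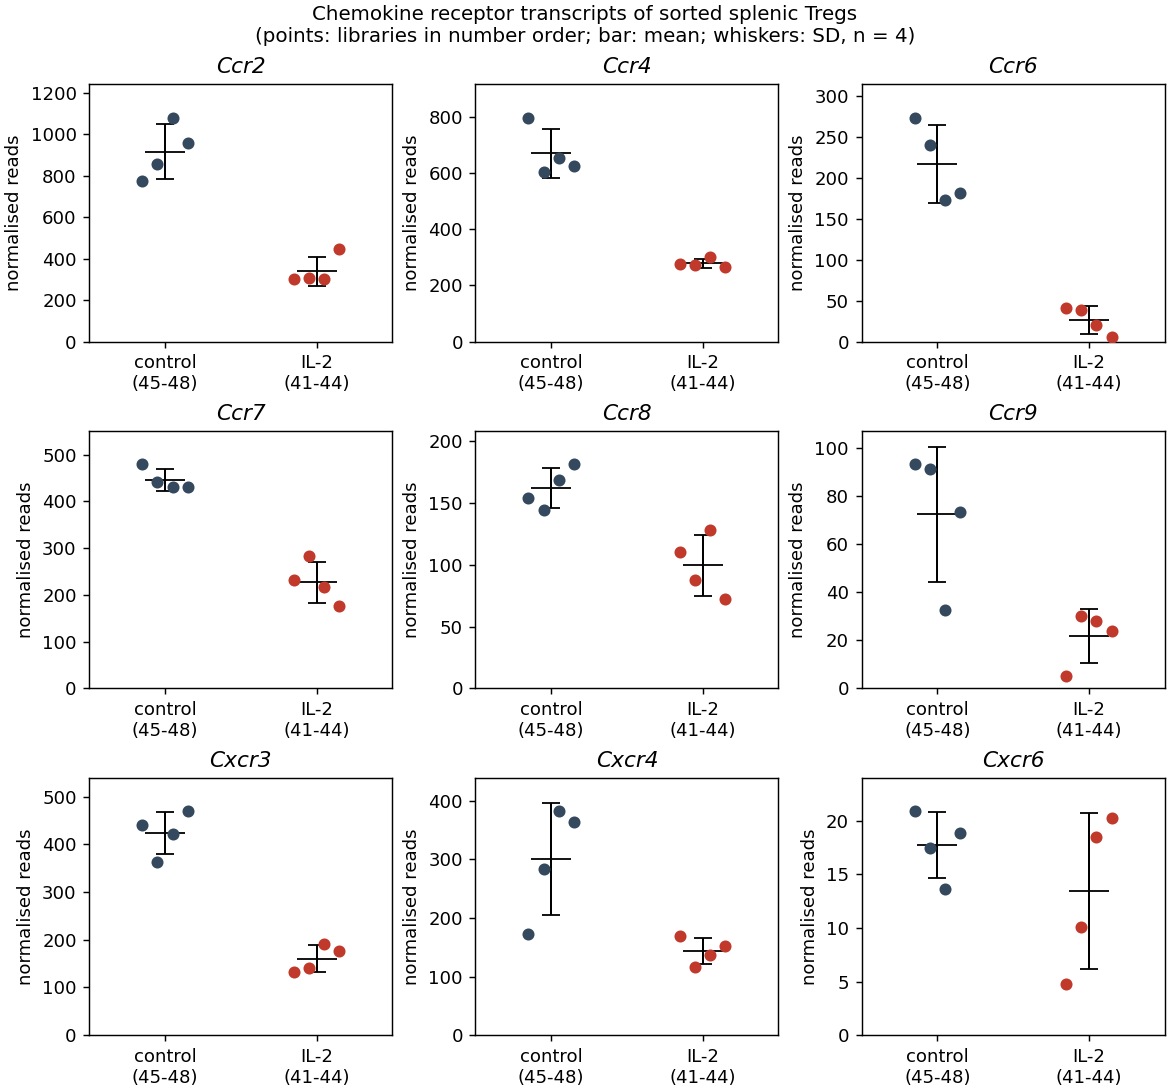
Normalised reads (vertical axes, from 0) of each of the 9 receptors in the control and IL-2 libraries, with the mean and SD of 4 libraries. The groups are apart for 8 receptors and overlap for Cxcr6, where IL-2 libraries lie between 4.77 and 20.3 reads and control libraries between 13.6 and 20.9.

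The sequences that follow are windows around listed transcription start sites of Ccr2, Ccr4, Ccr6 and Cxcr3, the 4 receptors with the smallest p in the second fit. These 4 were picked by p in these same data, where 8 of the 9 receptors were called lower. Each window runs from 250 bases before to 50 bases after a RefSeq start and is written 5′ to 3′ on the strand of the gene. The RefSeq table is of build GRCm38.p6, an older build than the GRCm39 named in the submitters' processing notes. Capitals mark matches to 7 short motifs: the STAT palindrome TTCNNNGAA, the AP-1 site TGANTCA, the forkhead site GTAAACA, the ROR site AGGTCA, the T-box site AGGTGTGA, the GATA core GATAA and the GC box CCGCCC, each searched on both strands. No 2 of these motifs overlapped in the windows shown.
Ccr2 (chr9:124101933-124102232, plus strand): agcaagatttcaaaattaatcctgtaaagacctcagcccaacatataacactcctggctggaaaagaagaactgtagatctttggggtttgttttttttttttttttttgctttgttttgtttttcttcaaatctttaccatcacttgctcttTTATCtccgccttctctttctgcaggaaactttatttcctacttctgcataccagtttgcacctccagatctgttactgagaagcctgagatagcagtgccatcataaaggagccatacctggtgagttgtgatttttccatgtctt
Ccr4 (chr9:114496495-114496794, minus strand): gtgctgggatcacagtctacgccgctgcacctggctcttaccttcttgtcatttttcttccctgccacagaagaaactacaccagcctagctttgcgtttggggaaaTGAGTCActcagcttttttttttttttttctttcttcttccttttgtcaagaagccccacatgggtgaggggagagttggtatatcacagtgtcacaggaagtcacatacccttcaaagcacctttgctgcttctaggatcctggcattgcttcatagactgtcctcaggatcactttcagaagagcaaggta
Ccr6 (chr17:8235793-8236092, plus strand): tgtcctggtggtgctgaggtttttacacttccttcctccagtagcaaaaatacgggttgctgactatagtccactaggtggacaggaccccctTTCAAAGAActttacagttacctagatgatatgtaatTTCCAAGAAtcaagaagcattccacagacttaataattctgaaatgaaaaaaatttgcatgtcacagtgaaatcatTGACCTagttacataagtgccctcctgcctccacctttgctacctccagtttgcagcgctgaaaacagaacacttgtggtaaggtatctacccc
Cxcr3 (chrX:101734098-101734397, minus strand): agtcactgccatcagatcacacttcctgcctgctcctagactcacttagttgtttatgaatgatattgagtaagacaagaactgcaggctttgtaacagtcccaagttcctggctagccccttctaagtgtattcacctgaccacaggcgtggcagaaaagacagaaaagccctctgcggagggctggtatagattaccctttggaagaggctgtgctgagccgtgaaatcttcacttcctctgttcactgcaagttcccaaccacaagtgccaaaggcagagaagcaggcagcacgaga
The Ccr6 window held TTCAAAGAA and TTCCAAGAA, both of the STAT form, their first bases at -157 and -120 from the start, and TGACCT, the ROR site on the other strand, at -44. The Ccr4 window held the AP-1 form TGAGTCA at -143. The Ccr2 window held 1 GATA core, and the Cxcr3 window none of the 7 motifs. Among all 32851 windows of this length, 8.30% held the STAT form, 7.81% the AP-1 form, 16.3% the ROR site and 25.4% the GATA core. Of the 9 receptors, 8 had a window. Ccr6 had a window at a second start, which held only a GATA core. The Cxcr4 window held 3 GC boxes, a motif of 35.7% of all windows, and no other receptor window held any. A match describes letters, not binding.

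Ccr7 and Cxcr4, the receptors of lymphoid tissue, were both lower. CCR7 binds CCL19 and CCL21 and brings naive and resting T cells into lymph nodes and the T cell zone of the spleen. Ccr7 had 231, 284, 216 and 177 normalised reads in IL-2 libraries 41 to 44 and 479, 442, 431 and 431 in control libraries 45 to 48. The controls were close together, with a coefficient of variation (CV) of 5.10%, near the 4.70% that counting alone gives, and the highest IL-2 library stayed well under the lowest control. Ccr7 differed by -0.98 ± 0.15 on the log2 scale (SE, limma adjusted p = 0.000672), and on the deposited scale -0.40 ± 0.06 (adjusted p = 0.000294).

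CXCR4 is the receptor for CXCL12, which holds cells in bone marrow. Cxcr4 had 169, 117, 136 and 152 reads in the IL-2 libraries and 173, 283, 382 and 364 in controls. Control library 45 was far lower than the other 3 controls and nearly level with IL-2 library 41, so the gap between the groups was only a few reads. The log2 difference of Cxcr4 was -0.99 ± 0.24 (limma adjusted p = 0.0111), and its control CV of 31.7% was the widest after that of Ccr9.

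Ccr4 and Ccr8 are receptors of effector Tregs. CCR4 binds CCL17 and CCL22, made by dendritic cells and in skin, and CCR8 binds CCL1. Ccr4 had 275, 273, 301 and 266 reads with IL-2 and 797, 605, 655 and 626 in controls. The IL-2 libraries were nearly identical, with a CV of 5.64% against 6.01% from counting alone, and control library 45 was the highest. Ccr4 had the smallest adjusted p of the 9, with a log2 difference of -1.25 ± 0.12 (limma adjusted p = 2.07e-05), and -0.58 on the deposited scale.

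Ccr8 had 110, 87.7, 128 and 72.0 reads with IL-2 and 154, 144, 168 and 181 in controls. Its groups were apart, but IL-2 library 43 came close to control library 46. Its log2 difference of -0.70 ± 0.21 (limma adjusted p = 0.0351) was the smallest of the 8 falls. The call was lost when IL-2 library 42 or 44 or any control library was left out (adjusted p = 0.0773, 0.0834, and 0.0634, 0.0517, 0.0802 and 0.0932 without libraries 45 to 48), and in a fit of deposited values without a filter (adjusted p = 0.0511).

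Ccr6 and Ccr9 direct cells to mucosa. CCR6 binds CCL20 and is shared by type 17 cells, B cells and a subset of Tregs. Ccr6 had 41.1, 39.0, 20.6 and 5.31 reads with IL-2 and 274, 240, 173 and 182 in controls. Every control was several times above the highest IL-2 library, and library 44 held very few reads of this gene. The log2 difference was -3.01 ± 0.43 (limma adjusted p = 0.000419), and -2.55 without library 44 (adjusted p = 0.000146). The 95% interval, from -3.94 to -2.09, did not overlap those of Ccr2, Ccr4, Ccr7, Ccr8, Cxcr3, Cxcr4 and Cxcr6, although differences between receptors were not tested.

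CCR9, the receptor for CCL25, leads T cells to the small intestine. Ccr9 had 5.17, 30.1, 27.9 and 23.7 reads with IL-2 and 93.0, 90.9, 32.5 and 73.1 in controls. Library 41 was lowest, and control library 47 lay only just above IL-2 library 42. The log2 difference was -1.59 ± 0.46 (limma adjusted p = 0.0283). The call was lost without IL-2 library 41 (log2 difference -1.17, adjusted p = 0.0591), without control library 45, 46 or 48 (adjusted p = 0.0802, 0.0794 and 0.0661), and in limma without trend (adjusted p = 0.0551). In the GENCODE vM21 transcripts, 1877 of the 10287 stretches of 31 bases of Ccr9 recur on the opposite strand in AC165425.1. The libraries are stranded, but whether the counting used strand is not given in the sources used here, so reads of these 2 genes may be mixed.

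Cxcr3, Ccr2 and Cxcr6 guide cells to inflamed tissue. CXCR3 binds the interferon-induced ligands CXCL9, CXCL10 and CXCL11 and marks Tregs of type 1 responses. Cxcr3 had 133, 141, 192 and 177 reads with IL-2 and 441, 364, 421 and 470 in controls. The lowest control was far above the highest IL-2 library. The log2 difference was -1.38 ± 0.16 (limma adjusted p = 8.61e-05), and on the deposited scale -0.52 ± 0.06 (adjusted p = 4.25e-05).

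CCR2 binds CCL2 and is best known from monocytes, and activated T cells and Tregs carry it too. Ccr2 had 303, 305, 304 and 445 reads with IL-2 and 774, 855, 1080 and 956 in controls. Libraries 41 to 43 were almost equal and library 44 was higher, yet still far below every control. Ccr2 differed by -1.43 ± 0.15 in log2 (limma adjusted p = 4.84e-05), and -0.72 ± 0.07 on the deposited scale. Of the 6745 stretches of 31 bases of Ccr2, 230 also occur on the same strand in other genes, so some reads could be assigned to either.

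CXCR6 binds CXCL16 and holds T cells in liver and other tissues. Cxcr6 had 4.77, 10.1, 18.5 and 20.3 reads with IL-2 and 20.9, 17.5, 13.6 and 18.9 in controls. The groups overlapped, and libraries 43 and 44 were level with controls. Cxcr6 differed by -0.39 in log2, with a 95% interval of -1.28 to 0.51 (limma adjusted p = 0.568). At this depth counting alone gives a CV of 27.8% in the IL-2 group, and the interval takes in a 2-fold fall as well as no difference.

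Over the 8 libraries the receptors did not move as a block. Library 44 was the highest IL-2 library for Ccr2 and Cxcr6 and the lowest for Ccr4, Ccr6, Ccr7 and Ccr8. Control library 45 was the highest control for Ccr4, Ccr6, Ccr7, Ccr9 and Cxcr6 and the lowest for Ccr2 and Cxcr4. The sum over the 9 receptors was steadier than most of its parts: it ran from 1271 to 1346 normalised reads in IL-2 libraries and from 3041 to 3359 in controls, 2.46-fold lower on average.

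Levels were compared between receptors per kilobase (kb) of the longest coding transcript in GENCODE vM21. In controls Cxcr3 (245 ± 26 normalised reads per kb, SD, n = 4), Ccr4 (239 ± 30.8) and Ccr7 (225 ± 11.5) stood highest. Cxcr4 (166 ± 52.7), Ccr2 (160.0 ± 23.3), Ccr8 (138 ± 13.6) and Ccr6 (124 ± 27.5) followed, and Ccr9 (13.9 ± 5.40) and Cxcr6 (9.29 ± 1.61) were far lower. Neighbours in this order did not differ beyond their spread, in that their ranges of mean ± SD overlapped, except for the step from Ccr6 to Ccr9. With IL-2 the order was Ccr7 (115 ± 22.5), Ccr4 (99.3 ± 5.60), Cxcr3 (92.7 ± 16.4), Ccr8 (84.6 ± 21.0), Cxcr4 (79.6 ± 12.3) and Ccr2 (59.3 ± 12.3), with overlapping ranges from one to the next. After a gap, Ccr6 (15.1 ± 9.61) overlapped in range with Cxcr6 (7.04 ± 3.82) and Ccr9 (4.18 ± 2.18). This order rests on the transcript used. With the shortest coding transcript of each gene the control levels would be 1980 reads per kb for Ccr4, 519 for Ccr6, 405 for Ccr2 and 333 for Cxcr4, all above Cxcr3, and 27.6 for Ccr9.

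**Figure D2:**
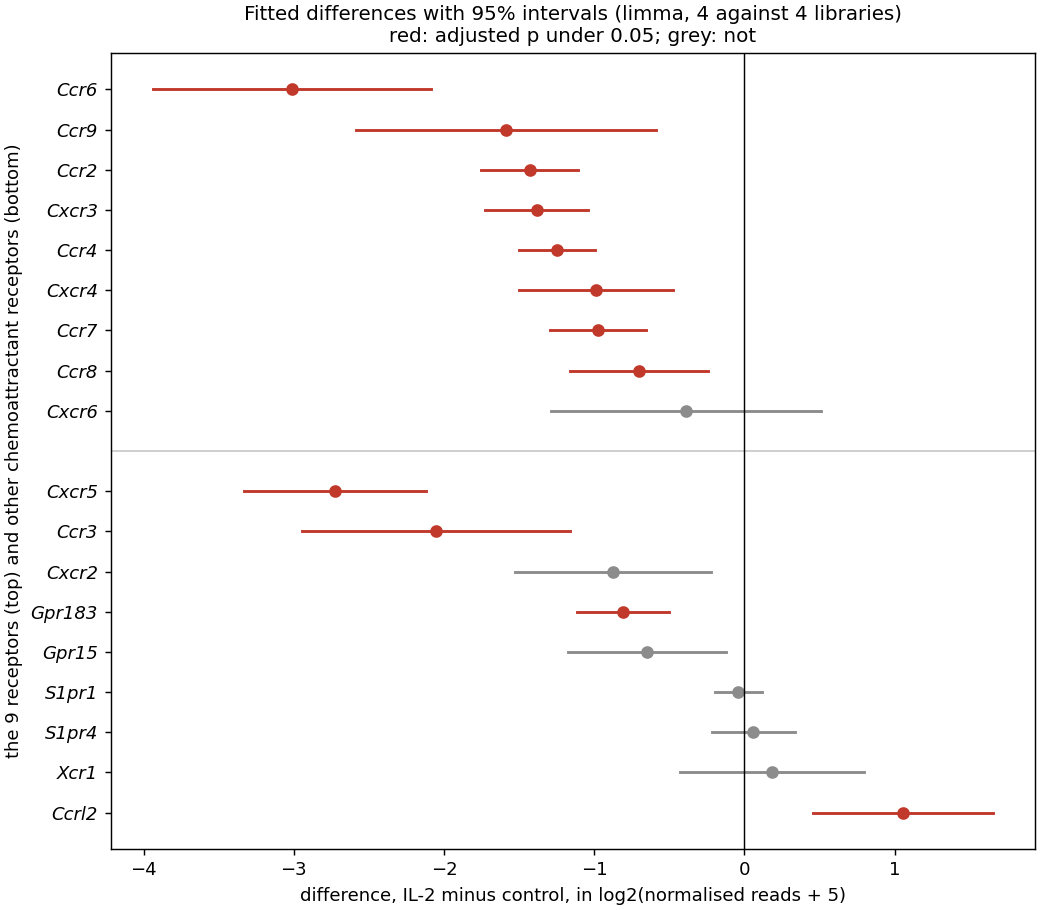
Fitted difference, IL-2 minus control, in log2(normalised reads + 5) with 95% intervals (limma) for the 9 receptors and for other chemoattractant receptors that could be tested, 1 of which is not shown. Intervals of 8 of the 9 lie wholly below 0. Ccrl2, in the lower block, lies above 0.

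Among the other receptors for chemoattractants more were called lower than higher, with a median difference of -0.73 over those tested. The 9 receptors had a median of -1.25 and all genes in the fit -0.01. Of 22 listed, 10 could be tested, of which 4 were lower, 1 was higher and 5 were not called, against 9.07% lower and 10.9% higher of all genes in the fit. Cxcr5, the follicular receptor left out of the 9, had the smallest p, with 96.5 ± 44.0 reads against 630.0 ± 139 (limma adjusted p = 4.30e-05). Ccr3, known from eosinophils, had 19.8 ± 15.8 against 84.3 ± 10.5 (adjusted p = 0.00395), and Gpr183, a receptor for oxysterols, 337 ± 43.1 against 597 ± 102 (adjusted p = 0.00184). Ccrl2, an atypical receptor that binds chemerin without signalling, was the one that rose, from 49.5 ± 8.64 to 111 ± 32.5 (adjusted p = 0.0172). S1pr1, the receptor that lets T cells leave lymphoid organs, had 2337 ± 102 reads under IL-2 against 2408 ± 180 (adjusted p = 0.751), with a 95% interval of -0.20 to 0.12 for its log2 difference.

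Several of these genes lie side by side. In the RefSeq order along mouse chromosome 9, Ccr9, Cxcr6, Xcr1, Ccr1, Ccr1l1, Ccr3 and Ccr2 follow one another with 1 other coding gene, Fyco1, between Ccr9 and Cxcr6. Not all genes of the cluster were called lower. Ccr3 and Ccr2 at one end and Ccr9 at the other were lower. Xcr1, between them, stood at 52.9 ± 11.8 reads under IL-2 against 45.9 ± 9.92 (limma adjusted p = 0.708). Ccr1 had fewer than 5 reads in every library and Ccr1l1 was at 0 in all 8, so neither could show a fall. Cxcr6 was not called, but its 95% interval was wide (-1.28 to 0.51). Fyco1 ran from 1190 to 1390 reads with IL-2 and from 1550 to 1800 in controls. Ccr4 and Ccr8 lie elsewhere on the same chromosome.

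**Figure D3:**
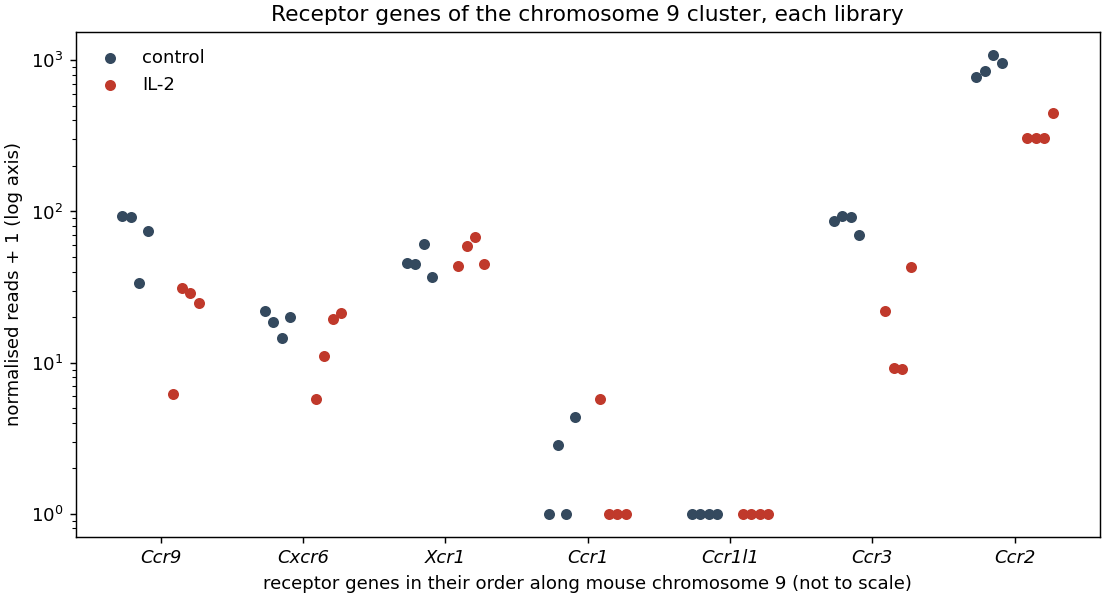
Normalised reads + 1 (log axis) of each library for the receptor genes of the chromosome 9 cluster named above, in gene order and not to scale. Control points lie above IL-2 points for Ccr9, Ccr3 and Ccr2, while points of the 2 groups mix for Cxcr6, Xcr1, Ccr1 and Ccr1l1.

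Transcripts of the ligands were nearly absent from these cells. Of 16 ligands of the 9 receptors, 8 had no read in any library (Ccl2, Ccl7, Ccl8, Ccl12, Ccl19, Ccl21a, Ccl22 and Cxcl12) and none had enough reads to be tested. Cxcl10, the CXCR3 ligand, reached 7.70 to 29.0 reads in controls and 0 to 6.46 with IL-2. Of 19 other chemokine genes only Ccl5, which encodes a chemokine of activated T cells, was tested, with 45.0 ± 34.4 reads against 160.0 ± 20.2 in controls (limma adjusted p = 0.00357).

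The signalling machinery below the receptors went both ways. Of 23 tested G protein subunits and effectors, 6 rose, 2 fell and 15 were not called, where 10.9% of all genes in the fit were higher and 9.07% lower. The median difference of 0.03 takes in members of both directions. Gnai2, the main inhibitory G protein subunit used by chemokine receptors in lymphocytes, rose from 4054 ± 362 to 5018 ± 151 normalised reads (limma adjusted p = 0.00808). Dock2, the exchange factor that turns chemokine signals into Rac activity, fell from 12850 ± 361 to 10480 ± 389 (adjusted p = 0.00197). The actin regulator gene Coro1a rose from 6576 ± 213 to 7978 ± 293, and Plcb3 and Gnaq, of the phospholipase branch, rose from 221 ± 36.8 to 346 ± 36.0 and from 301 ± 41.6 to 466 ± 74.6.

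Genes that switch receptors off were also read. Of 14 tested regulators of G protein signalling (RGS), receptor kinases and arrestins, 1 rose, 1 fell and 12 were not called, a share near that over all genes (10.9% higher, 9.07% lower), and the median was -0.03. Rgs16 fell from 159 ± 55.3 to 37.3 ± 23.6 reads (limma adjusted p = 0.00577). Rgs18 had 38.6 ± 10.4 reads with IL-2 and 0 to 11.8 in controls (adjusted p = 0.0032), and it passed the filter on low values through its IL-2 libraries, so that call is not independent of the difference. Rgs1, which damps CXCR4 and CCR7 signals in lymphocytes, had 209 ± 68.1 reads under IL-2 against 232 ± 19.7 (adjusted p = 0.592). Of 13 genes through which chemokines activate integrins, 3 rose, 4 fell and 6 were not called, beside 10.9% higher and 9.07% lower over all genes. Itgal, the alpha chain of the integrin LFA-1, fell from 4573 ± 364 to 2499 ± 377 (adjusted p = 0.000133), as did Rapgef1, Stk4 and Rassf5. Rasgrp2, the Rap exchange factor, rose from 450.0 ± 65.7 to 719 ± 174 (adjusted p = 0.012).

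**Figure D4:**
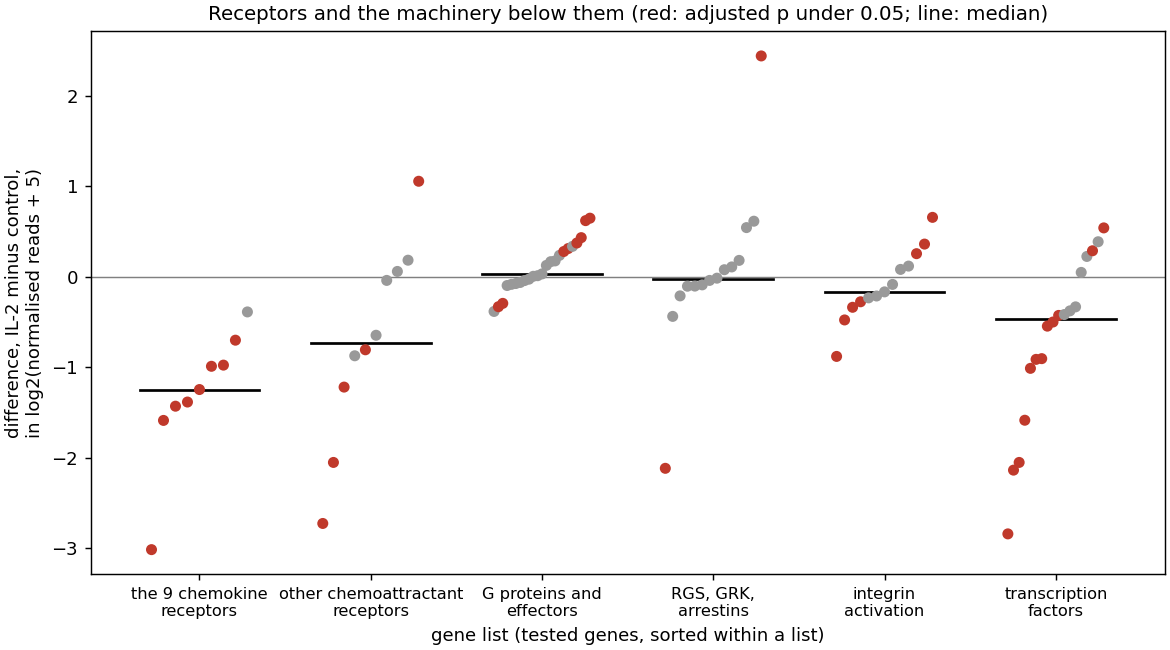
Fitted difference, IL-2 minus control, in log2(normalised reads + 5) for every tested gene of 6 lists, 1 point a gene, with the median of each list as a line and called genes in red. The receptors have a median of -1.25, while G proteins and effectors (0.03) and RGS proteins, kinases and arrestins (-0.03) centre near 0.

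Transcription factors known to act on receptor genes were also read. Of 18 tested, 10 fell, 2 rose and 6 were not called, while over all genes 9.07% were lower and 10.9% higher. Rora, whose product acts in CCR6-bearing type 17 cells, had 273 ± 41.4 against 1226 ± 256 reads (limma adjusted p = 3.19e-06). Tcf7, of resting cells, Hif1a, of the hypoxia response, and Satb1, a chromatin organiser, were the other 3 with the smallest p among those that fell. Foxo1, known to sustain Ccr7, had 2272 ± 310 against 3219 ± 446 (adjusted p = 0.00997). Tbx21, whose product T-bet drives Cxcr3, had 67.3 ± 22.9 against 86.7 ± 15.8 (adjusted p = 0.379), and Gata3 1197 ± 135 against 1034 ± 194 (adjusted p = 0.285). Runx3 and Bach2 were the 2 that rose. Any part of these factors in the receptor differences was not tested.

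For the 3 receptors with the smallest p on the deposited scale, the genes most like them over the 8 libraries were ranked by Pearson's r of deposited values among 5215 candidates. Ccr4 was nearest to Pdcd1 (0.993), Rnf19a (0.991) and Slc26a2 (0.989), Ccr2 to Spin1 (0.998), Rora (0.989) and Sh2d1a (0.987), and Cxcr3 to Mast4 (0.987), Zc3h12d (0.986) and Vps13d (0.984). These values describe 8 points in 2 separate groups from shared libraries, so they take in the difference between the groups.

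Several of these receptors are also carried by other spleen cells, so markers of such cells were summed per library. The labelled Treg markers Cd3e, Cd4, Foxp3, Il2ra, Ctla4 and Ikzf2 all passed the filter on low values. The sum of 10 Treg markers ran from 47100 to 53900 normalised reads with IL-2 and from 36600 to 37800 in controls (exact two-sided permutation p = 0.0286, 0.0571 adjusted over 10 marker lists, n = 4 each). Without Il2ra, which encodes the IL-2 receptor alpha chain, the Treg marker sums ran from 30200 to 34200 and from 28900 to 31700, which overlap. Il2ra, Lrrc32 and Tnfrsf18 were called higher, Cd4 was called lower (2523 ± 354 against 4136 ± 300, limma adjusted p = 0.000337), and the other 6 Treg markers were not called. The sum of 10 monocyte and macrophage markers ran from 829 to 1070 normalised reads with IL-2 and from 1640 to 1880 in controls (exact two-sided permutation p = 0.0286, 0.0571 adjusted over 10 marker lists, n = 4 each). Nearly all of it was Ctss. Without Ctss the sums were 59.0 to 141 and 88.8 to 149, which overlap, Cd14 was at 0 in every library, and Lyz2 was at 0 with IL-2 and at 5.55 to 14.5 reads in controls. The sum of 10 B cell markers ran from 41.3 to 117 and from 136 to 208 (exact p = 0.0286, adjusted 0.0571), with Cd22 at 24.1 ± 5.53 and 114 ± 20.1 (limma adjusted p = 0.000257) and Cd79b at 60.1 ± 31.1 and 42.0 ± 14.1 (adjusted p = 0.636). Without Cd22 it ran from 20.6 to 99.2 and from 29.1 to 65.8, which overlap, and Ms4a1 had at most 2.73 reads in any library.

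NK cell markers ran from 0 to 38.3 reads with IL-2 and from 69.3 to 170.0 in controls (exact p = 0.0286, adjusted 0.0571), of which Eomes made up most. Without Eomes the NK cell sums were still apart, at 0 to 11.4 and 23.0 to 96.1, mainly through Klrb1c (2.90 ± 3.53 against 36.4 ± 29.5), while Ncr1 had at most 9.99. Dendritic cell markers ran from 232 to 273 and from 272 to 375 (exact p = 0.0571, adjusted 0.0952), with Clec9a, Siglech and Cd209a at 0 throughout. Plasma cell markers, nearly all Xbp1, ran from 495 to 597 reads with IL-2 and from 272 to 372 in controls (exact p = 0.0286, adjusted 0.0571), and the sums without Xbp1 stayed at or under 12.0. Neutrophil, CD8 T cell, conventional CD4 T cell and red cell or platelet markers had exact p-values from 0.0857 to 0.6, with n = 4 in each group. Cd40lg, known from activated conventional CD4 T cells, was lower with IL-2 (53.1 ± 30.6 against 119 ± 22.9, limma adjusted p = 0.0248). The sum of its list without Cd40lg went the other way in means, at 29.5 ± 9.96 against 14.0 ± 6.97. Nearly all of that sum was Ifng, at 27.9 ± 11 against 10.7 ± 9.06 (limma adjusted p = 0.104). Il2, Il4, Il17a and Il21 had few reads or none. The part of other cells in the receptor differences was not tested.

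**Figure D5:**
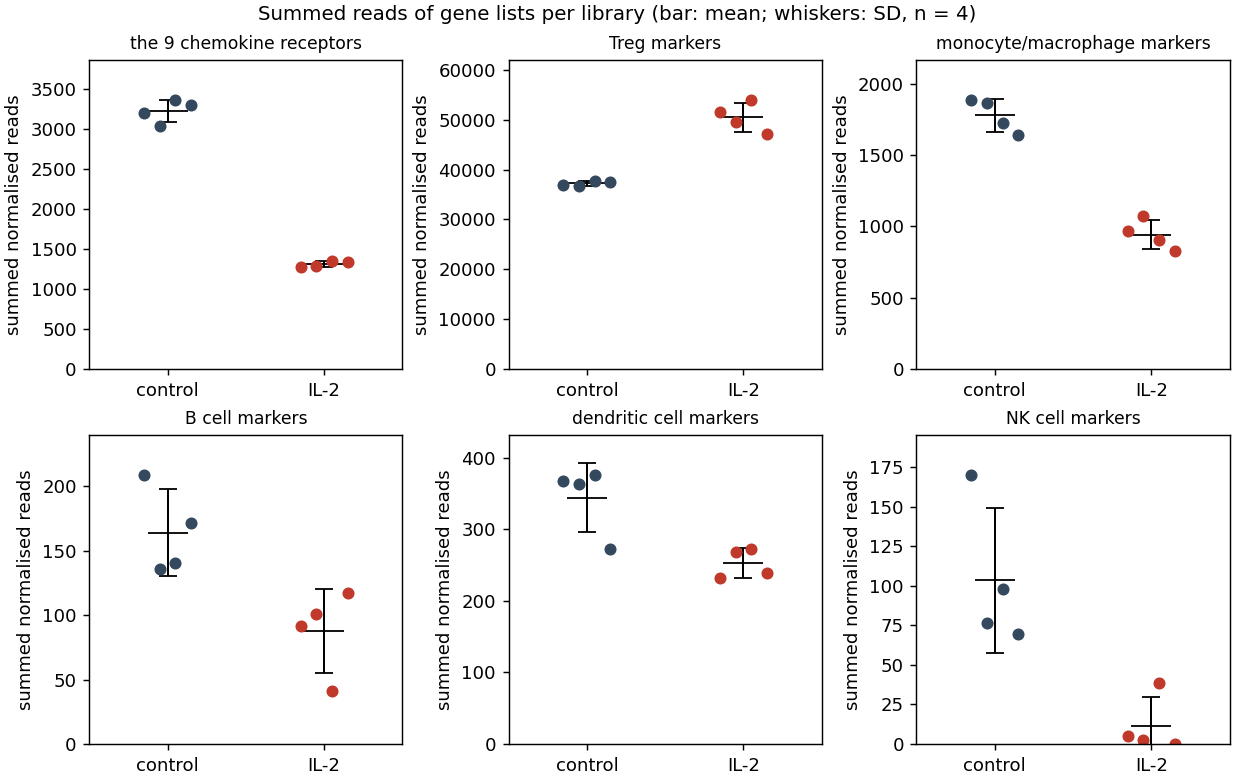
Summed normalised reads per library (vertical axes, from 0) of the 9 receptors, of Treg markers and of markers of 4 other cell types, with the mean and SD of 4 libraries. The receptor sums lie between 1271 and 1346 with IL-2 and between 3041 and 3359 in controls, and all 4 IL-2 points of the monocyte, B cell and NK cell markers also lie below the controls.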

How the data were processed

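Total RNA from flow-sorted splenic Tregs was made into stranded, dual-indexed low-input libraries, per the labels' protocols. The authors deposited 1 table of variance-stabilised values on a log2 scale, made with DESeq2. Per the submitters' processing notes, Salmon and DESeq2 were used with GRCm39. Settings, annotation and filters are not stated there. Columns were matched to samples by library number. Normalised reads were recovered by inverting the variance-stabilising formula, whose scale is set by the lowest value, 8.69, standing for 0 reads. Of the 40 commonest low values checked, 40 were whole multiples of 1 read within 0.001. The smallest of those checked in each library was itself taken as 1 read, so it could not fail. Other values need not be whole, so no count model was run.

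Both limma fits (trend, no covariates, Benjamini-Hochberg over all genes tested, threshold 0.05) are described with the results, and were tested on simulated data. The fit of log2 reads gives a test to the 5 receptors that the main filter leaves out. Its differences understate the change of genes with few reads. Exact permutation tests used 70 splits, with a smallest p of 0.0286. The receptors, gene lists and tests were chosen with earlier results of these data known. All 9 receptors are named, up to 5 genes of each other list with the smallest p, and Cxcr5. Other genes of the lists, such as S1pr1, Xcr1, Tbx21, Gata3, Foxo1, Bach2, Rgs1 and Rassf5, were named after their values were seen. Alternatives were other filters, scalings, variance models and pseudocounts, and leaving out each library. Fits were run in limma 3.58.1 under R 4.3.3. Other steps used pandas 2.3.3 and numpy 2.4.6, with plots by matplotlib 3.10.9 on Python 3.11.15. Ccr7 has no promoter window here. Some genes of the lists are counted but not reported here by name.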

Additional observations from a re-analysis of the deposited data

Results flagged for a closer look

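Ccr2 in IL-2 library 44 stood apart from its group, with 445 normalised reads where the next library had 305 and the lowest 303. It was the 1 value so marked among 18 groups of 4 libraries, and chance marks about 1 group in 20. Without library 44 the fall of Ccr2 was larger, with a log2 difference of -1.57 (limma adjusted p = 1.53e-05) on log2 reads and -0.78 (adjusted p = 8.80e-06) on the deposited scale.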

How the results depend on the processing

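No paired analysis was possible because the labels name no pairs of libraries between the groups. Ccr2, Ccr4, Ccr7 and Cxcr3 stayed lower and called in all 15 settings of the deposited scale in which each could be tested, and with Ccr6 and Cxcr4 in all 16 of the log2 read fit. Ccr8 passed in 10 and Ccr9 in 11 of those 16, and Cxcr6 in 0 (limma adjusted p from 0.430 to 0.881). Leaving out libraries, 6 to 8 of the 9 receptors were called lower. A stricter filter of 2 units above the lowest value kept 1519 genes, 380 higher and 357 lower, and 0 receptors, since none reaches it in the 4 libraries needed. Exact permutation p-values were 0.0286 for the 8 receptors with separate groups and 0.314 for Cxcr6. With 1 library left out, those of Ccr8, Ccr9 and Cxcr4 rose to 0.0571 in 11 cases. Quantile normalization and median centring shifted the median difference by at most 0.02. Depth limits Cxcr6, Ccr9 and the IL-2 values of Ccr6, which rest on few reads.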
